A study of Homo sapiens with 18 samples.

Results

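The genes described here are 45 genes of DNA replication and S phase, taken by symbol from a table of raw counts that held 28395 genes. They were chosen for their roles, with earlier results of these data known. All 45 were found and passed the filter on low counts that left 14571 genes to test. They comprised 10 genes of origin licensing, 6 of helicase activation, 12 of the sliding clamp, its loader and the polymerases, 4 of single-strand binding and Okazaki fragments, 5 of deoxynucleotide supply, 4 of replication-coupled chromatin and histone mRNA, and 4 of E2F factors, the checkpoint mediator and CDT1 destruction.

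The study used the established human multiple myeloma lines H929, MM1S and OPM2 and sequenced RNA of 18 libraries, 2 for each of 9 groups. Every line had an IKZF1 group, in which an inducible CRISPR-Cas9 system knocks the gene out, and an empty vector group. Both had been cultured for 72 h with doxycycline at 1 µg/mL, which turns on the guide RNA. OPM2 also had an inducible knockout of IKZF3 under the same doxycycline. The labels name no vector for the other OPM2 groups, which were lenalidomide-treated (10 µM, 72 h) and untreated. IKZF1 and IKZF3 encode Ikaros and Aiolos, lymphoid transcription factors that lenalidomide directs to degradation through cereblon. Live cells were sorted by light scatter. The labels do not say whether the libraries of a group are separate cultures, clones or guides, so a p-value measures only the spread between these libraries, which may be technical.

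Before S phase, ORC, CDC6 and CDT1 load the MCM2-7 ring onto origins, and CDC45 and the GINS complex then turn that ring into an active helicase. PCNA, loaded by RFC, holds the polymerases on DNA, while RRM1, RRM2, TYMS, TK1 and DUT supply or guard the deoxynucleotides. E2F transcription factors drive many of these genes as cells pass from G1 into S phase, so in a cycling population their RNA follows proliferation. In bulk RNA, fewer cells in S phase and less RNA per S phase cell cannot be told apart.

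Each library held 11.8 to 24.19 M counts. Plasma cell markers summed to 7192 CPM or more in every library, and NSD2 and FGFR3 were high in OPM2 and present in H929, while FGFR3 was at most 2.15 CPM in MM1S, where MAF was highest. Defining markers of other blood cells were low in most lists. NCAM1 was high in H929 and OPM2 and reached 14.4 and 15.9 CPM in the MM1S knockout, CD3E stood at 28.5 to 40.5 CPM in H929, and the summed erythroid markers stood at 3.40 to 18.6 CPM in OPM2. The transcript of the targeted gene was not lower in the knockouts: IKZF1 stood at 128 and 120 CPM in H929 empty vector and 124 and 188 CPM in its knockout, at 179 and 185 against 312 and 333 CPM in MM1S, and at 94.3 and 188 against 213 and 225 CPM in OPM2. IKZF3 stood at 69.3 and 66.6 CPM in the IKZF3 knockout against 44.0 and 50.3 CPM in its empty vector. A Cas9 cut need not lower the transcript, so these values do not check the knockout labels. Of the 9 pairs of libraries, that of the OPM2 empty vector stood apart: 951 genes differed by more than 2-fold between its 2 libraries, against 5 to 318 in the other groups. It is the control of both OPM2 knockouts, and its replicate 1 enters the shared spread of every test.

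E2F factors are known regulators of many of these genes, and the members moved together in MM1S, so their promoters were read. The 250 bases before and 50 after the start of each gene were taken from the RefSeq promoters of GRCh38.p14, in which 39 of the 45 members matched. GINS4, MCM4, MCM5, POLD3, RPA2 and RPA3 had no entry. An E2F site was written as any of TTTCGCGC, TTTGGCGC, TTTCCCGC and TTTGCCGC on either strand, and spellings may overlap each other. Such letters stood in 22 of 39 member promoters (56.4%), against 908 of 27305 promoters of the same length (3.33%). The CCAAT box of NF-Y, searched on both strands, stood in 22 of 39 members (56.4%) against 35.7% of all promoters. TTTGAA, the CHR element of many mitotic genes, stood in 1 of 39 members (2.56%) against 15.4% of all. The 150 bases before the start set by the promoter entry are printed for 4 genes with large changes. They are given 5′ to 3′ on the gene's strand, with E2F and CCAAT letters on either strand in capitals. They show an E2F site between CCAAT boxes (PCNA, chr20:5126623-5126772, minus strand), an E2F site alone (E2F2, chr1:23531234-23531383, minus strand), 3 overlapping or spaced E2F spellings with CCAAT (MCM6, chr2:135876444-135876593, minus strand) and 3 CCAAT boxes with no such E2F letters (RRM2, chr2:10122589-10122738, plus strand).
PCNA: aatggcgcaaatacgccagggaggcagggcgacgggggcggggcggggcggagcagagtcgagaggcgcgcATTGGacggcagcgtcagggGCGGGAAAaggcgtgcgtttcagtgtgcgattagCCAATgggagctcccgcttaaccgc
E2F2: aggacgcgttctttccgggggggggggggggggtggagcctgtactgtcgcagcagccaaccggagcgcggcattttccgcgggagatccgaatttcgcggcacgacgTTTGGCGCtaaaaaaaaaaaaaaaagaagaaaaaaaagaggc
MCM6: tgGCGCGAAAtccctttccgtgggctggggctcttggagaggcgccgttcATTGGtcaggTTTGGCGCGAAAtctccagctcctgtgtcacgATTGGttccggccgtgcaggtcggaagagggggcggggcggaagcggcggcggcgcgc
RRM2: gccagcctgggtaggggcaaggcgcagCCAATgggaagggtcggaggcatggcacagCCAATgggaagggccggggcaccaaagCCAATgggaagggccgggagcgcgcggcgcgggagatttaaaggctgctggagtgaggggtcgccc
In PCNA the E2F letters began 59 bases before the start and in E2F2 42 bases before it. In MCM6 they began 148, 90 and 86 bases before it. In RRM2 the start of the promoter entry lies inside the gene, which begins at chr2:10122568. Its printed bases are thus within the gene.

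The basal levels can be compared between genes only per length, which the authors' deposited table of log2 FPKM allows. In the authors' deposited table, RRM2, the small subunit of ribonucleotide reductase, was the highest of the 45 genes in the empty vector cells of H929 (log2 FPKM of 6.99) and MM1S (8.88). TK1, the salvage thymidine kinase, was the highest in untreated OPM2 (7.77) in the authors' deposited table. The lowest were CLSPN in H929 (1.95) and POLE2 in MM1S (1.43) and untreated OPM2 (1.61), again in the authors' deposited table. The 6 subunits of the MCM2-7 ring lay within a span of 0.67 log2 units in MM1S, 0.80 in untreated OPM2 and 0.90 in H929 in the authors' deposited table. These merged control columns carry no replicate error.

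In MM1S, the knockout of IKZF1 came with lower RNA of most of the set. Of the 45 genes, 24 fell and 0 rose (edgeR's quasi-likelihood test, Benjamini-Hochberg adjusted p under 0.05 over all genes tested), where 12.6% of all tested genes fell and 15.6% rose. The median log2 fold change was -0.42, against 0.00 over all genes. In 41 of 45 members (91.1%), both knockout libraries lay below both empty vector libraries, against 35.6% of all tested genes. Summed over the 45 genes, the level was 7866 and 7851 CPM in the empty vector libraries and 5797 and 5159 CPM in the knockout libraries. The number called lower dropped when any 1 MM1S library was left out, both among the members and among all tested genes. The median of the members was then -0.35 without knockout library b and -0.50 without library a. It was -0.40 and -0.44 without empty vector replicate 1 and 2. With the 4 MM1S libraries fitted alone, 41 fell and 1 rose, beside 27% of genes lower.

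**Figure D1:**
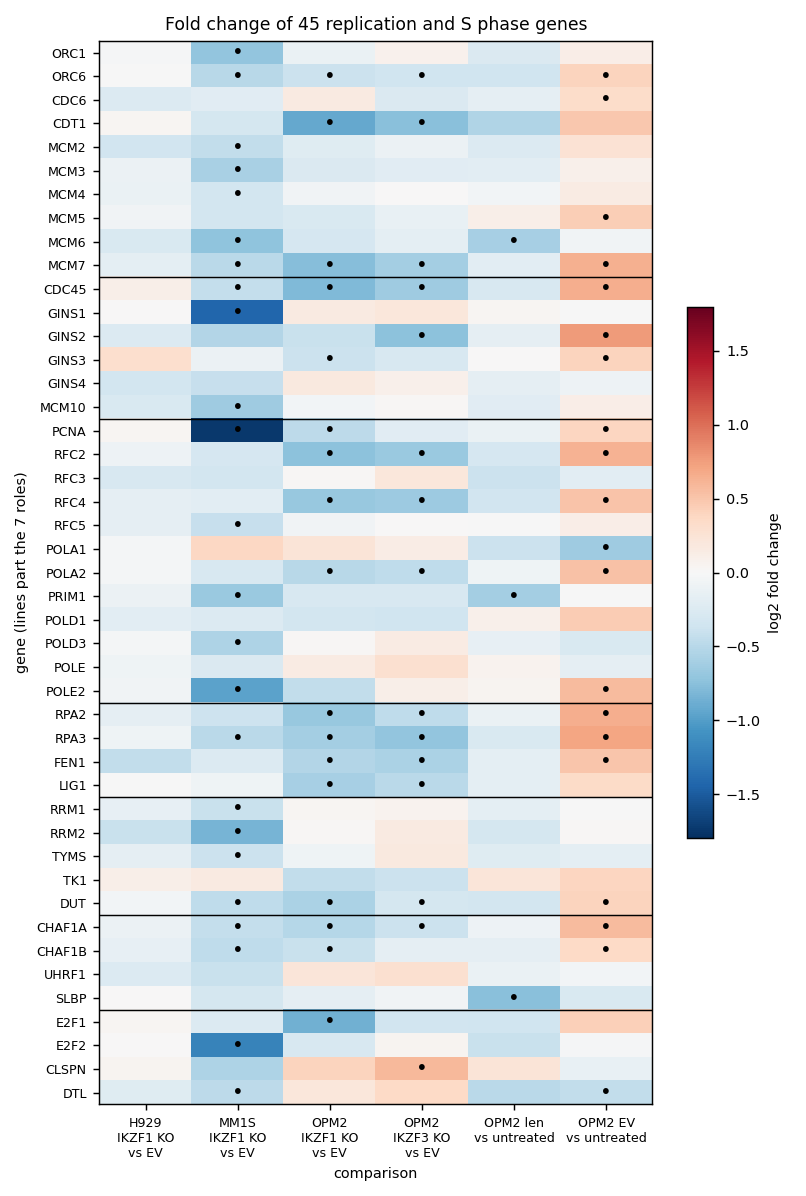
Log2 fold changes (colour) of the 45 genes (rows, parted by role) in 6 comparisons (columns: EV, empty vector; KO, knockout; len, lenalidomide), with a dot where the edgeR adjusted p is under 0.05. The MM1S column holds 24 dots, all on lower genes, the H929 column holds 0, and the lenalidomide column holds 3.

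Of the licensing genes 7 of 10 fell in MM1S, and all 10 had knockout libraries below both controls. MCM6, a ring subunit, read 314 and 302 CPM with empty vector and 204 and 169 CPM in the knockout. The libraries did not overlap, and the difference was -0.72 ± 0.12 (log2, SE; edgeR adjusted p = 0.00031). ORC1, the largest subunit of the origin recognition complex, read 74.2 and 78.5 CPM against 49.4 and 44.0 CPM. It fell by 0.71 on the log2 scale (SE 0.11, edgeR adjusted p = 0.00035). The other called members were MCM3 (-0.58), ORC6 (-0.50), MCM7 (-0.49), MCM2 (-0.44) and MCM4 (-0.33). CDC6 (129 and 126 against 118 and 103 CPM), CDT1 (82.8 and 90.1 against 71.6 and 67.4 CPM) and MCM5 (298 and 288 against 237 and 228 CPM) did not pass.

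Among the helicase activators, 3 of 6 fell in MM1S. GINS1, 1 of the 4 GINS subunits (chr20:25407673), read 77.6 and 84.6 CPM in empty vector and 31.0 and 29.5 CPM in the knockout. Its change of -1.42 ± 0.13 (log2, SE) was the second largest of the set (edgeR adjusted p = 1.7e-06). The knockout libraries of MM1S stood beside the 4 H929 libraries, which read 30.9 to 32.6 CPM. MCM10, which helps to start and hold the fork, fell by 0.64 on the log2 scale, and CDC45 by 0.43. GINS3 overlapped between the groups, with 30.0 and 28.6 CPM against 30.3 and 24.01 CPM. GINS2 and GINS4 were below both controls but did not pass.

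PCNA, the sliding clamp, changed the most of all 45. It read 325 and 327 CPM in the MM1S empty vector libraries and 105 and 90.7 CPM in the knockout libraries, a 3.33-fold lower level (log2 -1.73, SE 0.13, edgeR adjusted p = 3.9e-07). The call held without each of the 4 libraries in turn, with a largest adjusted p of 2.8e-05. PCNA lies at chr20:5114953-5126622 (GRCh38), in a stretch of chromosome 20 whose other genes were lower too. Of the 20 nearest tested genes, 10 on each side, 15 fell and 0 rose, with a median log2 fold change of -0.82. From 0 to 12 Mb, 52 of 74 tested genes other than the members fell and 2 rose, with a median of -0.96 and quartiles of -1.26 and -0.49. Beyond 12 Mb, 27 of 306 fell and 46 rose, with a median of 0.00. Against the mean of the empty vector libraries, the stretch was lower in both knockout libraries, by medians of -0.85 and -0.84. Over the same genes the median was 0.04 in the H929 knockout and 0.00 under lenalidomide. In the OPM2 knockouts against empty vector it was -0.19 (IKZF1) and -0.17 (IKZF3), beside -0.11 and -0.12 beyond 12 Mb. PCNA lay 0.91 log2 units below the median of its neighbours, and the part of the stretch in its fall was not tested. The bounds of the stretch were chosen after the values were seen.

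No other member had such neighbours in MM1S. For 1 of the 45, PCNA, the neighbours' median was beyond 0.5 log2 units in either direction, and for the rest it ran from -0.33 (TYMS) to 0.34. GINS1, on the same chromosome but outside the stretch, had neighbours with a median of 0.03, of which 1 of 20 fell. E2F2 had neighbours with a median of 0.23 and POLE2 of -0.10. TYMS fell by 0.38 on the log2 scale, and its 14 neighbours had a median of -0.33, with 6 lower, so its own change was near theirs.

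**Figure D2:**
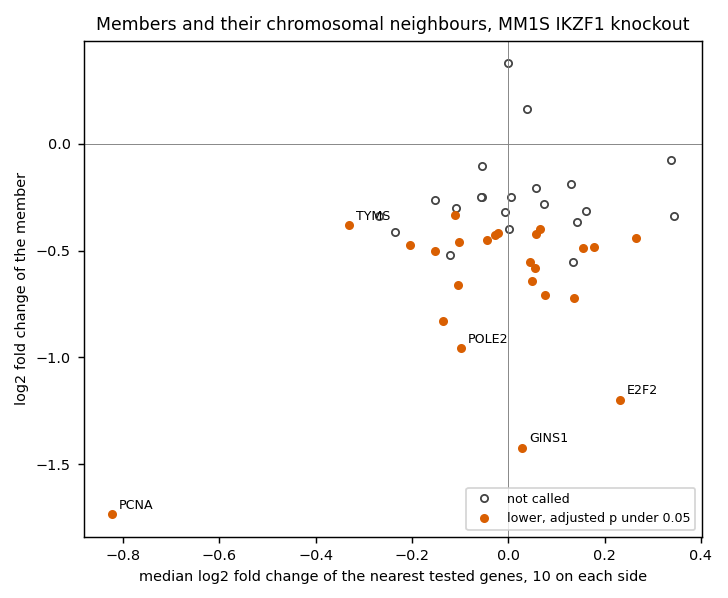
Each point is 1 of the 45 genes in MM1S, with the median log2 fold change of its 10 nearest tested genes on each side (x axis; fewer at a chromosome end) and its own log2 fold change (y axis). PCNA stands alone at the left with a neighbour median of -0.82, while GINS1, E2F2 and POLE2 fell among neighbours with medians of 0.03, 0.23 and -0.10.

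Of the clamp, loader and polymerase genes, 5 of 12 fell in MM1S. POLE2, an accessory subunit of the leading-strand polymerase, read 7.93 and 6.60 CPM against 4.21 and 3.23 CPM. Its fall of 0.96 on the log2 scale (SE 0.22, edgeR adjusted p = 0.0048) passed in 2 of the 4 fits with 1 library left out, where the adjusted p reached 0.061. PRIM1, the catalytic primase subunit, read 35.3 and 37.5 CPM against 24.7 and 21.2 CPM, and fell by 0.66 (edgeR adjusted p = 0.0053, and 0.069 at most with 1 library left out). POLD3 (-0.55) and the loader subunit RFC5 (-0.42) also passed. POLA1, the catalytic subunit of the primase-associated polymerase, went the other way: 75.9 and 82.5 CPM with empty vector and 101 and 105 CPM in the knockout. Its libraries did not overlap, but its log2 difference of 0.38 did not pass.

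In the deoxynucleotide group, 4 of 5 fell in MM1S. RRM2 read 1260 and 1292 CPM against 769 and 666 CPM, a fall of 0.83 on the log2 scale (SE 0.14, edgeR adjusted p = 0.00036). The knockout libraries were the lowest of MM1S and still above all 14 libraries of the other lines, whose highest was 578 CPM. DUT, the dUTPase that keeps uracil out of DNA, fell by 0.45, and RRM1, the large reductase subunit, by 0.40. TK1 did not follow, with 149 and 157 CPM against 184 and 158 CPM. Of the 4 genes of single-strand binding and Okazaki fragments, RPA3 fell (-0.48). LIG1, the ligase that seals the fragments, overlapped between the groups, with 123 and 119 against 122 and 108 CPM.

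E2F2, an activating E2F, read 384 and 401 CPM in MM1S empty vector and 176 and 166 CPM in the knockout. The groups were far apart, and the 2.29-fold lower level (SE 0.15 on the log2 scale) had an edgeR adjusted p of 4.4e-05. E2F1, its better known relative, read 132 and 126 against 106 and 111 CPM and did not pass. DTL, the substrate receptor that marks CDT1 for destruction, fell by 0.48, while CLSPN, the mediator that passes the stress signal to CHEK1, was below both controls (67.8 and 59.4 against 49.0 and 37.5 CPM) without passing. Both large subunits of the chromatin assembly factor fell, CHAF1B by 0.46 and CHAF1A by 0.42.

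**Figure D3:**
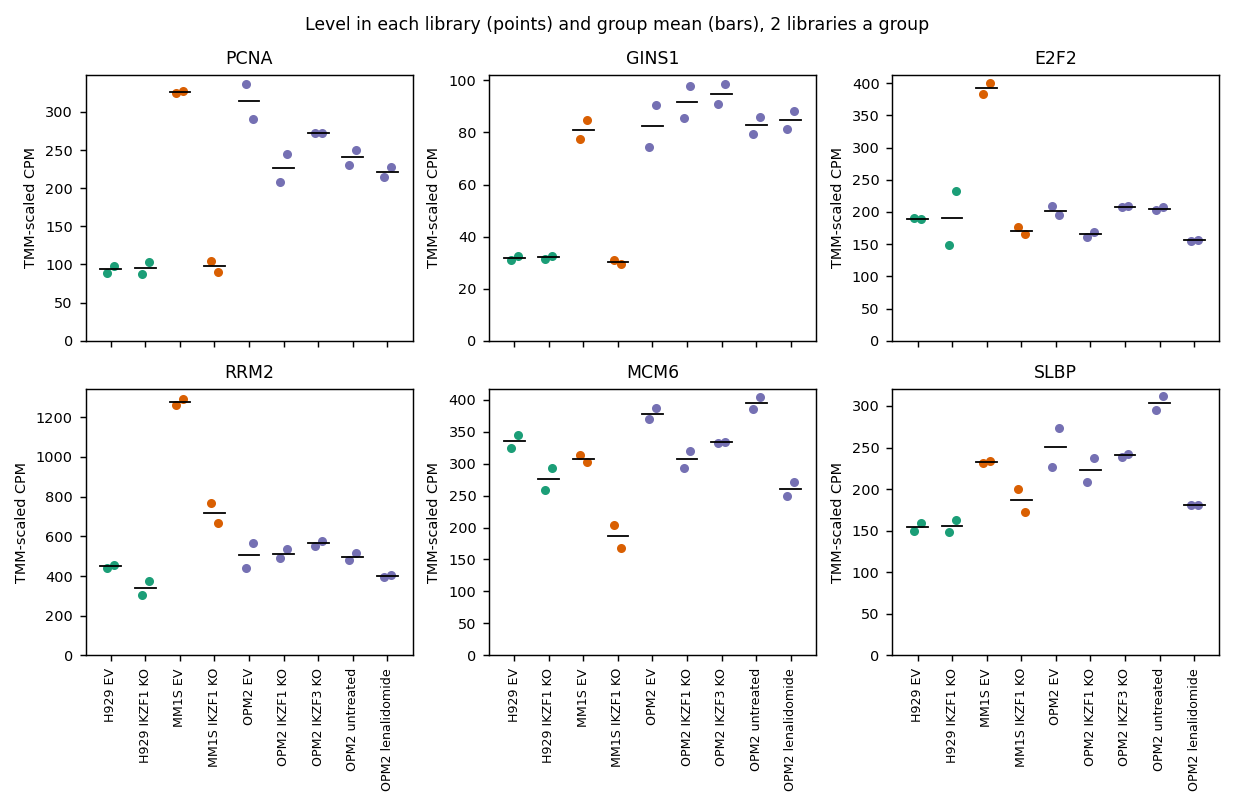
TMM-scaled CPM of 6 genes (y axes, from 0) in each library (points) with the group mean (bars) over the 9 groups (x axis). PCNA, GINS1 and E2F2 drop in MM1S to near their H929 level, RRM2 and MCM6 drop in MM1S, and SLBP is lowest within OPM2 under lenalidomide.

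E2F letters stood in 10 of 21 matched members that fell in MM1S (47.6%) and in 12 of 18 that did not pass (66.7%). CCAAT stood in 15 of 21 (71.4%) and 7 of 18 (38.9%). These shares are a description with no test. RRM2, whose bases before the promoter entry's start are printed with 3 CCAAT boxes and no E2F letters, was among the members that fell.

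The rest of the replication machinery was read from lists fixed by role. In MM1S, where 12.6% of all tested genes fell and 15.6% rose, 6 of 26 remaining subunits fell and 1 rose, 4 of 14 genes of fork processing and cohesion fell, and 7 of 23 genes of E2F, RB and cyclin E/A control fell. Of 9 checkpoint genes 6 fell, of 12 chromatin and DNA methylation genes 6 fell, and of 12 genes of nucleotide metabolism 2 fell and 1 rose, near the shares of all genes. CCNE1 and CCNE2, the E cyclins that drive entry into S phase, fell by 0.97 and 0.72 on the log2 scale (edgeR adjusted p = 0.00032 and 0.026). DBF4B, an activator of the CDC7 kinase, fell by 1.28, with a neighbour median of -0.04. CHEK1, the checkpoint kinase, fell by 0.47, and DNMT1, the maintenance DNA methyltransferase, by 0.43. The falls of MCM8 (-1.41), MTBP (-1.48), DSCC1 (-1.43) and ATAD2 (-1.24) stood among genes that were lower as well. MCM8 lies in the stretch of chromosome 20 (neighbour median -0.80), and MTBP, DSCC1 and ATAD2 on chromosome 8 had neighbour medians of -1.17, -1.04 and -1.08. The part of the neighbours in these falls was not tested.

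Other measures moved with the MM1S knockout. MAF rose from 489 and 516 CPM with empty vector to 951 and 1172 CPM in the knockout. NSD2 read 254 and 256 against 206 and 224 CPM, without passing. The 8 plasma cell markers summed to 7329 and 7192 CPM with empty vector and to 11730 and 12050 CPM in the knockout, and 5 of the 8 rose. JCHAIN made up most of each sum, with 4223 and 4112 against 6703 and 7215 CPM. IRF4 went the other way, with 709 and 766 against 594 and 652 CPM, without passing. The summed myeloid markers were at 1.76 and 2.11 against 4.62 and 5.13 CPM with LYZ at 0, and T cell markers at 2.41 and 2.51 against 3.26 and 2.98 CPM with CD3D at 0. NK markers were at 2.06 and 3.10 against 14.4 and 15.9 CPM, with KLRD1 and NKG7 at 0. Their part in the lower replication genes was not tested.

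In H929, no member passed after the knockout of IKZF1. The count was 0 higher and 0 lower, where 5.92% of all tested genes rose and 4.6% fell, and 7 members had an unadjusted p under 0.05, of which 6 were lower. DESeq2 called 1 member, which was lower, where 5.08% of all tested genes were lower. With limma-voom 0 members passed, where 5.26% of all tested genes were lower. The median log2 fold change was -0.10, against -0.03 over all genes. In 12 of 45 members both knockout libraries lay below both controls, against 33.2% of all tested genes. The 2 knockout libraries differed from each other. Against the mean of the empty vector libraries, library a was lower for 42 of 45 genes (median log2 ratio -0.22) and library b for 22 of 45 (median 0.01). The summed level was 5449 and 5814 CPM with empty vector, 4578 CPM in library a and 5589 CPM in library b.

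The members nearest to a call in H929 were RRM2, FEN1 and MCM2. RRM2 read 438 and 458 CPM with empty vector and 304 and 376 CPM in the knockout, a log2 difference of -0.40 ± 0.13 (SE; edgeR adjusted p = 0.078), and its 20 chromosomal neighbours had a median of -0.59. FEN1, the flap nuclease of Okazaki fragments, read 231 and 250 against 158 and 197 CPM (edgeR adjusted p = 0.089). MCM2 read 342 and 367 against 250 and 309 CPM (edgeR adjusted p = 0.11). All 3 had libraries that did not overlap. PCNA, with 89.2 and 97.7 against 87.8 and 104 CPM, E2F2, with 190 and 189 against 149 and 232 CPM, and GINS1 overlapped between the groups. Leaving either OPM2 empty vector library out of the shared spread gave 5 lower members in H929, where 11.3% of all tested genes were then lower.

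**Figure D4:**
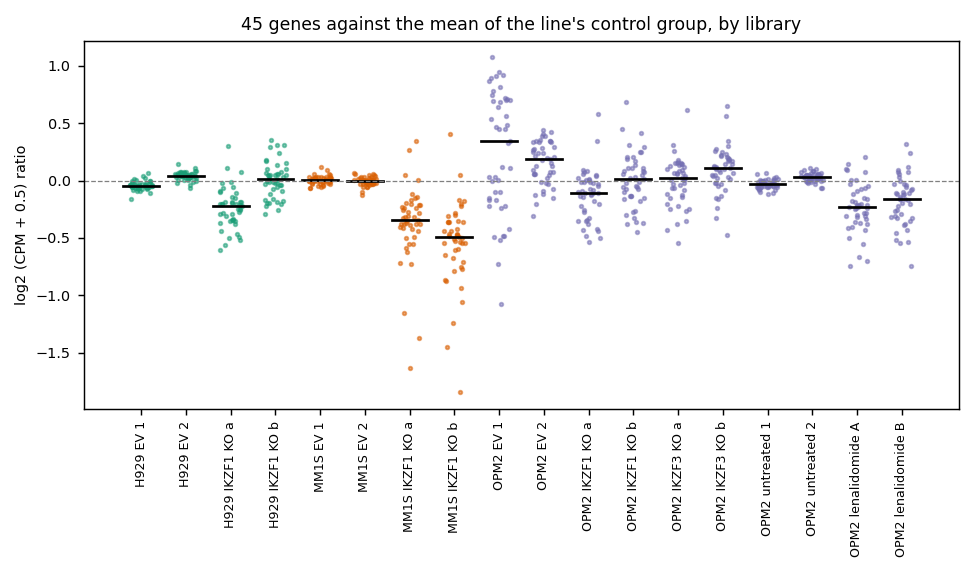
Log2 ratio of (CPM + 0.5) of each of the 45 genes (points) to the mean of the line's reference group (empty vector in H929 and MM1S, untreated in OPM2), by library, with the median (bar). The MM1S knockout libraries have medians of -0.34 and -0.49, the lenalidomide libraries of -0.23 and -0.16, and OPM2 empty vector replicate 1 has the widest spread.

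The effect of the IKZF1 knockout was then compared between lines with a test of the difference itself. Of the 45 genes, 6 had a lower effect in MM1S than in H929 and 0 a higher one, where 6.94% of all tested genes were lower and 8.91% higher. These were PCNA (-1.77 ± 0.18, log2 difference of the effects and SE), GINS1 (-1.44 ± 0.18), E2F2, POLE2 (-0.89 ± 0.29), ORC1 (-0.69 ± 0.16) and MCM3 (-0.48 ± 0.15). The median difference over the 45 was -0.29. Against OPM2, 7 members were lower in MM1S and 0 higher, with 8.94% of all tested genes lower and 11.8% higher. Between H929 and OPM2, 4 were higher in H929 and 0 lower, with 6.51% of genes higher and 6.14% lower. With only the compared libraries, 0 differed between H929 and OPM2, where 0.307% of tested genes were higher and 0.556% lower. The median difference between those lines was 0.15 with all libraries. It was -0.06 without H929 knockout library b and 0.28 without OPM2 empty vector replicate 2. PCNA, GINS1, E2F2 and ORC1 differed in both comparisons with MM1S, which share the MM1S libraries. RRM2, at -0.83 in MM1S and -0.40 in H929, did not pass this test between those lines.

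**Figure D5:**
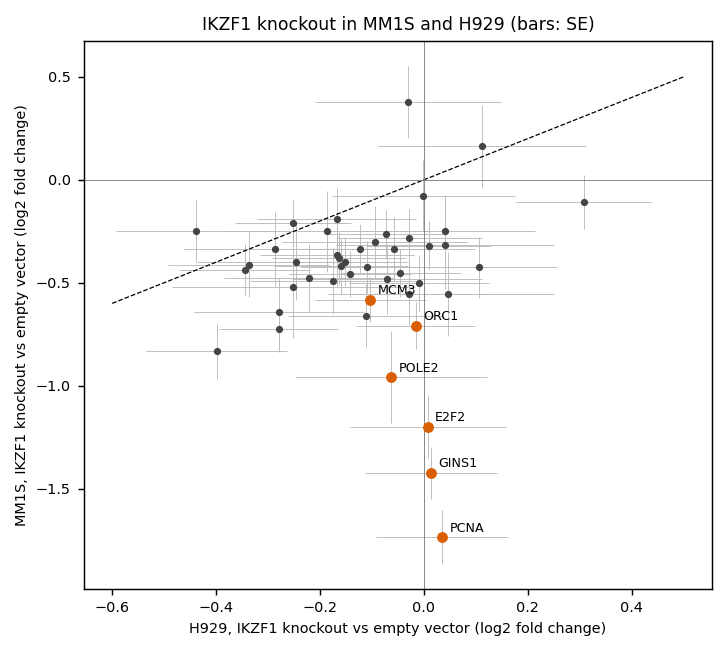
Log2 fold change of the IKZF1 knockout in H929 (x axis) and MM1S (y axis) for the 45 genes, with bars of 1 SE and a dashed line of equal change. The 6 named genes differed between the lines by the test of the difference, with PCNA at 0.03 in H929 and -1.73 in MM1S.

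Lenalidomide in OPM2 gave small shifts, mostly downward. Of the 45 genes, 3 fell and 0 rose, where 4.58% of all tested genes fell and 5.76% rose. The median log2 fold change was -0.18, against 0.00 over all genes. In 35 of 45 members (77.8%) both treated libraries lay below both untreated libraries, against 32.5% of all tested genes. The summed level was 7012 and 7310 CPM in untreated cells and 6085 and 6330 CPM with lenalidomide. With the 4 libraries fitted alone, 26 fell and 2 rose, beside 21.9% of genes lower. The median of the members stayed at -0.18 when either OPM2 empty vector library was left out of the shared spread. Some markers moved with the treatment as well. FGFR3 fell from 2316 and 2268 to 801 and 773 CPM, and MAF rose from 137 and 124 to 255 and 234 CPM. NSD2, listed with FGFR3, overlapped, with 2068 and 2120 CPM untreated and 2174 and 2045 CPM treated. The 8 plasma cell markers summed to 15830 and 15520 CPM untreated and 14560 and 14610 CPM treated, and of these 1 rose and 1 fell. The summed erythroid markers stood at 8.69 and 7.23 CPM untreated and 3.40 and 3.41 CPM treated, and the epithelial and stromal markers at most at 0.72 CPM, with EPCAM, KRT19 and COL1A2 at 0. Their part in the lower replication genes was not tested.

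SLBP, the protein that binds the stem-loop of histone mRNAs, changed the most under lenalidomide. It read 296 and 312 CPM in untreated cells and 181 and 181 CPM in treated cells. The pairs were far apart, and the fall of 0.75 on the log2 scale (SE 0.12, edgeR adjusted p = 0.00089) passed in all 4 fits with 1 library left out. PRIM1 read 43.6 and 48.9 against 28.3 and 32.2 CPM and fell by 0.61 (edgeR adjusted p = 0.019), a call that passed in 0 of those 4 fits. MCM6 read 386 and 405 against 249 and 271 CPM and fell by 0.60 (edgeR adjusted p = 0.0032), passing in 3 of 4. PRIM1 and MCM6 also fell in the MM1S knockout. E2F2 (202 and 208 against 155 and 157 CPM) and DTL (241 and 252 against 174 and 179 CPM) were apart between the groups but did not pass.

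PCNA read 231 and 250 CPM untreated and 215 and 228 CPM with lenalidomide, a log2 difference of -0.11 that did not pass. GINS1 overlapped, with 79.5 and 86.0 against 81.2 and 88.2 CPM. TK1 (352 and 350 against 404 and 413 CPM) was among the 5 of 45 members whose treated libraries lay above both controls. Of all 14571 tested genes, 4793 did so, a larger share. CCNE1 fell by 0.71 on the log2 scale (edgeR adjusted p = 0.012), CDKN1A, an inhibitor of cyclin-dependent kinases, rose by 0.49 (edgeR adjusted p = 0.037) and CDKN2D fell by 0.73 (edgeR adjusted p = 0.047). Of the 26 remaining subunits 0 fell and 0 rose, and of 9 checkpoint genes 1 rose. By test, 2 members fell both in the MM1S knockout and under lenalidomide, and by libraries without overlap 33 of 45 (73.3%) were lower in both, against 1.42% and 14.9% of all tested genes. These comparisons share no library.

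In the OPM2 knockouts, the counts of members differed with the control used. Against the empty vector, 17 members fell and 0 rose with the IKZF1 knockout, where 20% of all tested genes fell and 16.2% rose. With the IKZF3 knockout, 14 fell and 1 rose, where 20.6% fell and 16.2% rose. Both comparisons use the same 2 empty vector libraries. With the untreated libraries as the control, 1 member fell and 1 rose with the IKZF1 knockout, where 3.69% of genes fell and 4.08% rose. With that control, 0 fell and 1 rose with the IKZF3 knockout, where 4.53% fell and 3.74% rose. The medians were -0.29 and -0.18 against empty vector and -0.02 and 0.07 against untreated. With only the 4 compared libraries in the fit, 0 members passed in either knockout, where 0.0489% and 0.121% of all tested genes were lower. Without empty vector replicate 1 the counts were 8 and 2 lower, beside 10% and 11.3% of genes. An offset for GC content and length moved the medians against empty vector to -0.13 and -0.03.

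All 4 genes of single-strand binding and Okazaki fragments fell in both OPM2 knockouts against empty vector. RPA3, the small subunit of the single-strand binding complex, read 43.8 and 30.4 CPM with empty vector, 22.7 and 25.5 CPM with the IKZF1 knockout, 20.8 and 24.5 CPM with the IKZF3 knockout and 22.5 and 22.7 CPM untreated. Only the empty vector libraries were high. CDC45 read 100 and 68.1 CPM with empty vector, 48.5 and 48.4 CPM, 51.0 and 57.1 CPM, and 52.7 and 53.8 CPM in the same order of groups. FEN1 changed by -0.52 with the IKZF1 knockout, and its 20 chromosomal neighbours had a median of -0.48. LIG1 changed by -0.59 beside -0.52 for its neighbours.

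CDT1, the licensing factor that must be removed in S phase, read 450 and 266 CPM with empty vector, 181 and 198 CPM with the IKZF1 knockout, 196 and 231 CPM with the IKZF3 knockout and 267 and 245 CPM untreated. Replicate 1 was the highest of all. Against empty vector CDT1 fell by 0.92 (edgeR adjusted p = 0.0048) and 0.75 (edgeR adjusted p = 0.013). Against untreated cells its log2 differences were -0.43 and -0.26, neither of which passed. E2F1 read 107 and 68.6 CPM with empty vector, 47.9 and 47.7 CPM with the IKZF1 knockout and 63.4 and 67.1 CPM untreated. Its IKZF1 knockout libraries were below all of these, with -0.87 against empty vector (edgeR adjusted p = 0.0026) and -0.45 against untreated (edgeR adjusted p = 0.15).

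The calls against untreated cells concerned other genes. CDC6, which brings the MCM ring to the origin, read 207 and 184 CPM with the IKZF1 knockout, 173 and 175 CPM with empty vector and 135 and 142 CPM untreated. It rose by 0.50 on the log2 scale against untreated cells (edgeR adjusted p = 0.012). SLBP read 209 and 237 CPM with the IKZF1 knockout, 227 and 274 CPM with empty vector and 296 and 312 CPM untreated. With that knockout it fell by 0.45 against untreated cells (edgeR adjusted p = 0.033). POLE2 rose by 0.67 with the IKZF3 knockout against untreated cells (edgeR adjusted p = 0.049). It read 11.3 and 11.6 CPM with the IKZF3 knockout, 11.5 and 9.95 CPM with empty vector and 6.94 and 7.51 CPM untreated. For all 3 genes the empty vector libraries also lay apart from the untreated ones, on the same side as the knockout. The part of the vector and doxycycline in these calls was not tested. CLSPN was the 1 member that rose against empty vector, with the IKZF3 knockout: 36.8 and 44.1 CPM against 21.1 and 32.5 CPM (log2 0.59, edgeR adjusted p = 0.036), with 27.6 and 31.9 CPM untreated.

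Empty vector and untreated OPM2 cells, which differ in the vector and in doxycycline at once, were compared directly. Of the 45 genes, 18 were higher with empty vector and 2 lower, where 19.5% of all tested genes were higher and 15.8% lower. In 25 members both empty vector libraries lay above both untreated libraries, against 31.4% of all tested genes. The highest was GINS2, with 184 and 115 against 87.8 and 87.2 CPM (log2 0.77, edgeR adjusted p = 0.018), and the 2 lower genes were POLA1 (-0.64) and DTL (-0.44). Between the 2 empty vector libraries, 9 members differed by more than 1.5-fold, 6 of them higher in replicate 1. Without replicate 1, the median log2 fold change of the members was 0.16, beside 0.33 with both. With only the 4 compared libraries in the fit, 0 members passed, and 0 of all 12434 genes tested there. With the replicate number added as a block, 0 members passed, where 5.36% of tested genes were higher and 8.36% lower. The offset for GC content and length moved the median from 0.33 to 0.10. The vector, doxycycline and what sets replicate 1 apart cannot be told apart here.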

How the data were processed

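For build GRCh38, the submitters' processing notes name Subread, featureCounts and limma without their roles, and versions and the strand setting are not given in the sources used here. The authors deposited raw counts per Entrez gene for 18 libraries, and a table of log2 FPKM values, normalized by the authors, in which control groups are merged. Rows with no symbol (385 genes) stayed in the fit and held under 0.03% of any library. Knockout columns carry numbers that are not in the titles, so they were assigned by group and are called a and b.

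Counts were fitted in edgeR 4.0.16 (R 4.3.3) with all 18 libraries in 1 fit, filterByExpr by group, TMM scaling and the robust quasi-likelihood F test (9 residual degrees of freedom), and p-values were Benjamini-Hochberg adjusted over 14571 genes at 0.05. Levels are TMM-scaled CPM, that is counts scaled to a common library size. With 2 libraries against 2, an exact permutation test cannot go below p = 0.33. In simulated counts for the MM1S comparison (14571 genes), all but the genes chosen to change were set equal in both groups. The fit recovered 11.9% of 67 genes changed 1.5-fold, 74.6% of 67 changed 2-fold and 90.9% of 66 changed 4-fold. These rates need not hold for the measured comparison, where many more genes were called. DESeq2 1.42.0, limma-voom 3.58.1, other scalings and filters, subsets of libraries, a replicate block and, added after seeing the data, an offset for GC content and length were the alternatives. The genes and lists were chosen with earlier results of these data known. Values per library were given for the called members with the largest changes in each comparison (up to 8), or the 3 smallest p where fewer than 3 passed, for the best member of each role, and for E2F1, PCNA and MCM2 to MCM7 where they bear on a result. Other members were added for contrast after their values were seen. Chromosomal neighbours were read from the GRCh38.p14 RefSeq table, also after seeing the data.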

Additional observations from a re-analysis of the deposited data

Results flagged for a closer look

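The effect of the IKZF1 knockout differed between lines for 17 pairings of a gene and a pair of lines, each by the edgeR test of the difference at an adjusted p under 0.05. The pairings reuse the same libraries, so they are not 17 separate findings. Values are the first line's log2 fold change minus the second's. For MM1S minus H929 these were PCNA (-1.77), GINS1 (-1.44), E2F2 (-1.20, SE 0.21), POLE2 (-0.89), ORC1 (-0.69) and MCM3 (-0.48). In that comparison 6.94% of all tested genes were lower and 8.91% higher. PCNA's value stands with a neighbour median of -0.82 in MM1S, and the part of the neighbours was not tested.

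For MM1S minus OPM2 these were GINS1 (-1.58), PCNA (-1.26), CLSPN (-0.96), E2F2 (-0.91), RRM2 (-0.86), DTL (-0.68) and ORC1 (-0.59), where 8.94% of all tested genes were lower and 11.8% higher. For H929 minus OPM2 these were CDT1 (0.96), E2F1 (0.91), CDC45 (0.90) and GINS3 (0.69), where 6.51% were higher and 6.14% lower. With only the compared libraries 0 members differed between H929 and OPM2, where 0.307% of tested genes were higher and 0.556% lower. With 1 library left out, the median difference of the members ran from -0.06 to 0.30. Both sets use the OPM2 empty vector, in which CDT1 read 450 and 266 CPM and E2F1 107 and 68.6 CPM in the 2 libraries.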

How the results depend on the processing

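Of 131 alternative counts, 78 stayed within 1.5 times the reported count. With only the compared libraries, the counts were 42 (MM1S), 0 (OPM2 IKZF1 knockout), 0 (OPM2 IKZF3 knockout), 28 (lenalidomide), 0 (empty vector against untreated), 14 (MM1S minus H929), 3 (MM1S minus OPM2) and 0 (H929 minus OPM2). In the same order, the shares of all tested genes higher and lower were 28.4% and 27%, 0.88% and 0.0489%, 0.298% and 0.121%, and 23.4% and 21.9%. The last 4 were 0% and 0%, 16.3% and 13.2%, 2.55% and 2.67%, and 0.307% and 0.556%. With 1 library left out, counts ran from 0 to 5 in H929, 7 to 35 in MM1S, 8 to 29 with the OPM2 IKZF1 knockout, 0 to 31 with the IKZF3 knockout, 1 to 14 under lenalidomide, 4 to 30 for empty vector against untreated, 4 to 15 for MM1S minus H929, 4 to 28 for MM1S minus OPM2 and 0 to 27 for H929 minus OPM2; a lone library is then assumed to vary like the other groups. The high ends came from leaving out an OPM2 empty vector library. Without the filter on low counts, 1 member was lower in H929 and 5 under lenalidomide, beside 4.05% and 3.96% of tested genes. DESeq2 gave 1 lower in H929, 5 under lenalidomide and 14 for MM1S minus OPM2, beside 5.08%, 5.41% and 11.9% of genes. For H929 minus OPM2 it gave 6 higher and 1 lower, beside 9.3% and 9.43%. The GC content and length offset gave 3 lower in H929, 9 under lenalidomide and 13 for MM1S minus H929. Beside these, 8.13%, 8.26% and 11.9% of genes were lower. For MM1S minus OPM2 the offset gave 1 higher and 10 lower, beside 13.1% and 11.1%. Upper quartile scaling gave 11 lower for that difference, beside 10.9% of genes. The same offset moved the median from -0.29 to -0.13 for the OPM2 IKZF1 knockout, from -0.18 to -0.03 for the IKZF3 knockout, from 0.33 to 0.10 for empty vector against untreated and from 0.15 to 0.04 for H929 minus OPM2. With untreated cells as control, the count was 2 for the OPM2 IKZF1 knockout, where 4.08% of tested genes rose and 3.69% fell. It was 1, in the opposite direction, for the IKZF3 knockout, where 3.74% rose and 4.53% fell. Of the 17 and 15 members called against empty vector, 5 and 9 then had the opposite sign, at 0.00441 to 0.0964 and 0.00628 to 0.202: ORC6, GINS3, POLA2, RPA3 and CHAF1A with the IKZF1 knockout, and ORC6, MCM7, CDC45, GINS2, POLA2, RPA2, RPA3, DUT and CHAF1A with the IKZF3 knockout. Among the genes named, RPA3 reversed to 0.10 with the IKZF1 knockout, and GINS2 (0.0279), RPA3 (0.00628), CDC45 (0.0224) and MCM7 (0.0282) reversed with the IKZF3 knockout. With a replicate block, empty vector against untreated gave 0 members, where 5.36% of tested genes were higher and 8.36% lower. The pair's deviations correlated at 0.24 over genes, but the 2 pairs share only a number. No other comparison was paired, because the knockout columns of the counts carry no title numbers and lenalidomide has letters. The authors' log2 FPKM columns carry the title numbers but were not used to match libraries. In the self-test, 1.5-fold changes were often missed. It called 121 genes, where the MM1S data gave 2273 higher and 1841 lower genes. With fewer changed genes the adjusted p is stricter, so its recovery rates need not hold for the members.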

Other observations

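Mitotic genes, which cycling cells express after S phase, and repair genes were read from lists of their own. Of 19 mitotic genes 4 fell and 0 rose with the MM1S IKZF1 knockout, with a median log2 fold change of -0.27, where 12.6% of all tested genes fell. In 16 of the 19, both knockout libraries lay below both controls, against 35.6% of all tested genes. The 4 were AURKA (-0.52), PLK1 (-0.47), CCNB1 (-0.44) and NUF2 (-0.40), a kinase of the spindle pole, the polo kinase, cyclin B and a kinetochore subunit. Of 12 genes of homologous recombination and the Fanconi pathway, a list that also held MSH6 and UNG, 2 fell: UNG, the uracil glycosylase, by 0.59 and MSH6, a mismatch sensor, by 0.48. That count is near the share of all genes, while 10 of the 12 were below both controls.

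UNG also fell by 0.70 on the log2 scale in H929 (edgeR adjusted p = 0.0026) and by 0.44 under lenalidomide (edgeR adjusted p = 0.043). AURKA fell by 0.49 under lenalidomide (edgeR adjusted p = 0.013), the 1 of 19 mitotic genes to do so, where 4.58% of all tested genes fell. In 14 of the 19 both treated libraries lay below both controls (median log2 fold change -0.22), against 32.5% of all tested genes. In H929, BIRC5, the survivin of the chromosomal passenger complex, fell by 0.52 and SAMHD1, the dNTP hydrolase, rose by 1.98 (edgeR adjusted p = 0.00012).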
